A study of Macaca mulatta with 12 samples.

Results

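The genes described here are those of oligodendrocytes, the glial cells that wrap axons in myelin in the brain and spinal cord. A list of 34 oligodendrocyte and myelin genes was matched by exact gene symbol to the probe sets of the array. Of these, 32 genes had at least 1 probe set, and PMP22 and OPALIN were not analysed here because no probe set was named for them in the annotation used. The 32 genes were measured by 62 of 22283 probe sets, and the whole array named 11963 gene symbols. For 16 of the genes there was 1 probe set and for the other 16 several, of which the one of highest mean stands for the gene unless stated otherwise.

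The tissue was the lateral geniculate nucleus of rhesus macaques (Macaca mulatta), the part of the thalamus through which the retina reaches the visual cortex, in animals with monocular deprivation. Total RNA of each of the 6 layers was hybridised once from each hemisphere, which gave 12 arrays. The 6 deprived arrays were ipsilateral layers 2, 3 and 5 and contralateral layers 1, 4 and 6. The 6 non-deprived arrays were ipsilateral layers 1, 4 and 6 and contralateral layers 2, 3 and 5. By the anatomy of the nucleus, and not by the labels, layers 1 and 2 are magnocellular (4 arrays) and layers 3 to 6 parvocellular (8 arrays). All animals were deprived, so the non-deprived layers came from the same kind of animal and not from untreated controls. Sex, age, the way and length of deprivation, the number of animals and the animal behind each array are not given in the sources used here. With 12 arrays the precision of each value is limited. The p-values below measure the spread between layers and hemispheres, part of which may be technical, and they are too small as statements about animals where arrays shared one.

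Oligodendrocytes extend sheets of membrane that spiral around an axon and lose most of their cytoplasm, which leaves compact layers rich in cholesterol and galactolipids and held together by a small set of abundant proteins. Myelin speeds conduction and the cells also supply axons with metabolites. In the geniculate nucleus, oligodendrocytes lie among the relay neurons and wrap incoming retinal axons as well as axons on their way to and from the cortex. Magnocellular neurons are large with thick axons, and parvocellular neurons are smaller with thinner axons. No sequence or genome position is printed, because the arrays' files held none and no build was named.

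All 3 defining markers passed the filter on low values. MBP, myelin basic protein, which holds the inner faces of the membrane together, had scaled intensities of 30137.9 to 73296.2 over the 12 arrays. CNP, a phosphodiesterase of the noncompacted parts of the sheath, had 8471.8 to 32925.0. MAG, a glycoprotein of the innermost membrane that faces the axon, had 505.2 to 2148.2, and on deprived layer 2 its 537.4 lay below that array's median intensity of 666.5. Intensities of different probe sets are not on a common scale, the more so for macaque RNA on human probes, so levels were compared only between arrays. Of the 32 genes, 29 (48 probe sets) had a mean above the median of all probe sets and entered the tests, and ASPA, BCAS1 and TSPAN2 did not.

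A score per array, the mean over the 32 genes of log2 intensity minus each gene's own mean, summarised how these genes moved between layers. It was 0.566 in deprived layer 3, 0.345 in deprived layer 5, 0.203 in deprived layer 6, 0.084 in deprived layer 4, 0.002 in deprived layer 2 and -0.207 in deprived layer 1. In non-deprived layers it was 0.059 in layer 5, -0.062 in layer 6, -0.221 in layer 4, -0.223 in layer 1, -0.249 in layer 3 and -0.297 in layer 2. The deprived array had the higher score in 6 of 6 layers, by 0.815 in layer 3, by 0.265 to 0.305 in layers 2, 4, 5 and 6, and by 0.016 in layer 1. The groups overlapped: non-deprived layer 5 lay above the deprived magnocellular layers. The residual SD of the score was 0.16. With all 12 arrays ordered by score, neighbours differed by less than this SD, other than deprived layers 3 and 5. In deprived layer 3, 29 of the 32 genes were above their own median over the arrays, and 13 genes had their highest value there.

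**Figure D1:**
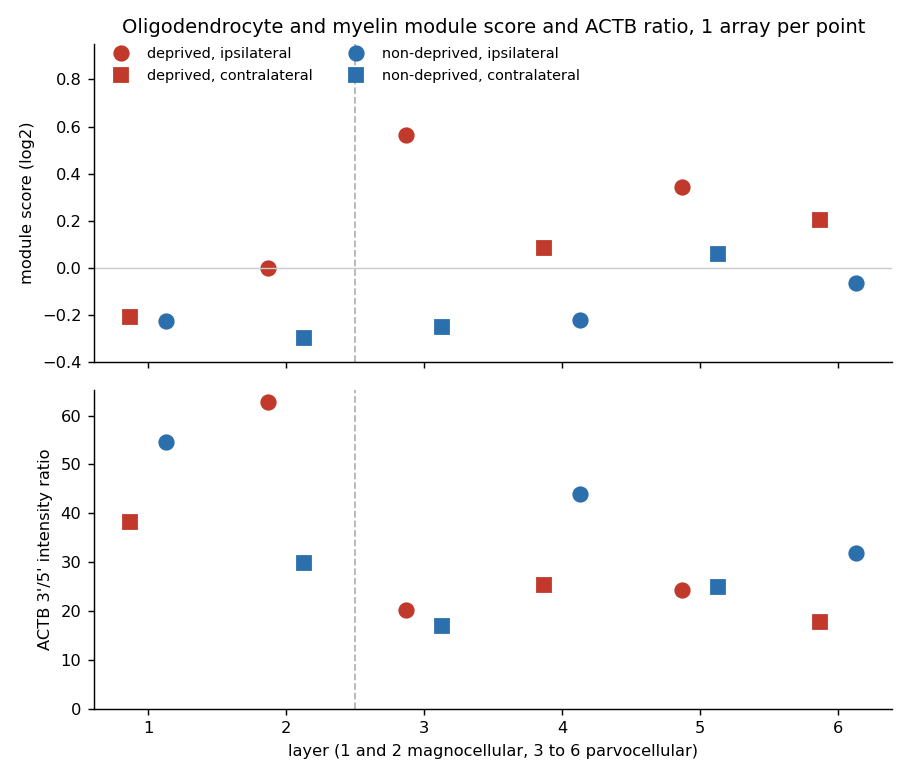
Score of the 32 oligodendrocyte and myelin genes (mean log2 intensity minus each gene's mean, 1 array per point) by layer in deprived and non-deprived arrays, with the ACTB 3'/5' control ratio of the same arrays in the lower panel; circles are ipsilateral and squares contralateral. The deprived array has the higher score in 6 of 6 layers, most in layer 3 (0.566 against -0.249), and the ACTB ratio is highest on deprived layer 2 (62.9).

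The average score was 0.165 ± 0.271 in deprived and -0.165 ± 0.135 in non-deprived arrays (SD, n = 6 each). It was -0.181 ± 0.128 in magnocellular arrays (n = 4) and 0.091 ± 0.278 in parvocellular arrays (n = 8). The 3'/5' intensity ratio of the ACTB control, which rises as RNA is shortened from its 5' end, was 46.4 ± 15.1 (29.8 to 62.9) in magnocellular arrays and 25.7 ± 8.78 (17.0 to 43.9) in parvocellular arrays. Between deprived (31.5 ± 16.9) and non-deprived arrays (33.7 ± 13.5) it differed by less than the spread within either group. It was 39.7 ± 17.0 in ipsilateral and 25.5 ± 7.90 in contralateral arrays (n = 6 each). In layers 1 to 6 the ratio was 38.2, 62.9, 20.3, 25.4, 24.4 and 17.7 in deprived arrays, and 54.7, 29.8, 17.0, 43.9, 24.9 and 31.9 in non-deprived arrays. The GAPDH 3'/5' ratio was 9.38 on deprived layer 2, 11.0 on deprived layer 5 and between 2.21 and 5.65 elsewhere.

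The first comparison set deprived against non-deprived layers, with cell class and hemisphere in the fit. Oligodendrocyte and myelin genes were mostly higher in deprived layers, but no single gene passed the test. Of the 29 genes tested, 28 had a positive log2 change (53.1% of the 7285 genes tested did), and their median change was 0.37, against 0.02 over all genes. Their changes ran from -0.24 to 0.78. None passed an adjusted p under 0.05 (limma, Benjamini-Hochberg over all probe sets), a threshold passed by 0.0824% of all genes. At an unadjusted p under 0.05, 11 were higher (6.09% of all genes) and 0 lower (6.3%). Over all 32 measured genes 30 changes were positive, with a median of 0.31. In such bulk samples a difference in the number of oligodendrocytes and in RNA per cell cannot be told apart.

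Each layer's deprived and non-deprived arrays came from opposite hemispheres, so a difference within a layer holds both. In layers 1 to 6, the deprived array was higher for 15, 20, 26, 20, 22 and 24 of the 29 genes. Over all genes the shares were 40.1%, 53.3%, 56%, 44.6%, 61.6% and 52.3%. The median difference of the 29 genes was 0.08, 0.40, 0.69, 0.08, 0.44 and 0.22 in layers 1 to 6, against -0.17, 0.06, 0.08, -0.08, 0.19 and 0.02 for all genes. The median change was 0.21 over the 32 genes without the deprived layers 3 and 5, an alternative chosen after seeing the data, and 24 of the 32 stayed positive. Median centring of the arrays moved the median change of all genes by over 0.1, to -0.08 against 0.06 as deposited, and 23 of the 32 genes were then positive. Median centring shifts every gene on an array alike, so the gap of 0.25 between the 32 genes and all genes could not change. Quantile normalization gave a median change of 0.27 over the 32 genes, with 29 positive. With the ACTB ratio in the fit the median of the 29 genes was 0.33 and 26 were positive.

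**Figure D2:**
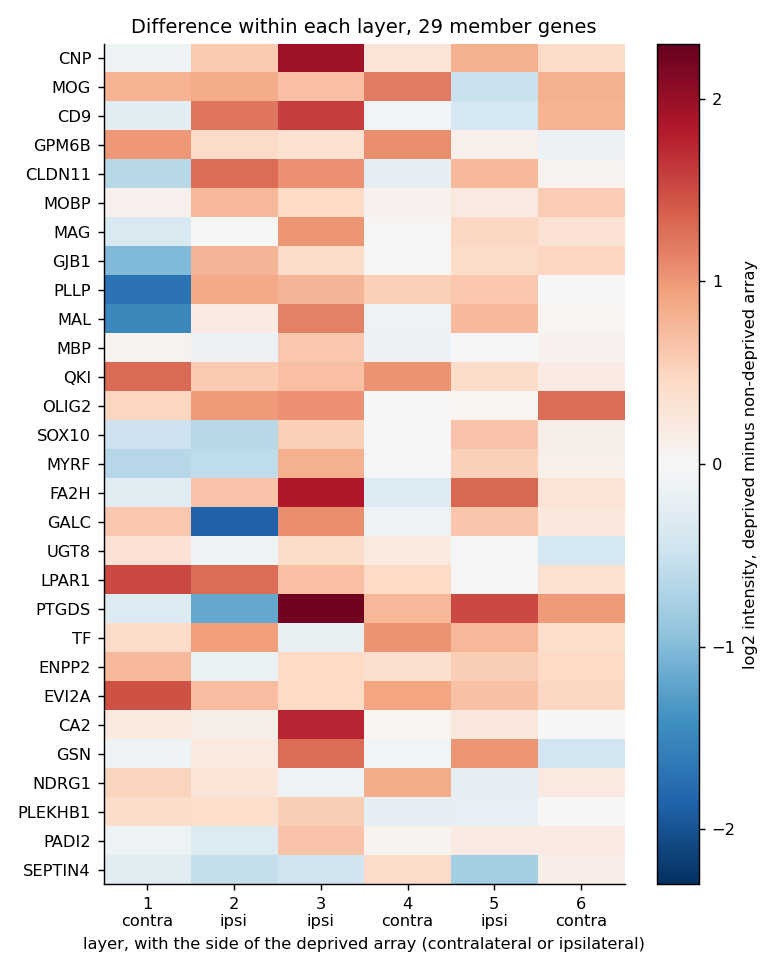
Difference in log2 intensity, deprived minus non-deprived array, for each tested gene (rows) in each of the 6 layers (columns), as colour. Layer 3 has a higher deprived value for 26 of the 29 genes and layer 1 for 15.

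Among the genes of the myelin membrane, 11 of 11 tested had a positive change (median 0.37), 3 of them with an unadjusted p under 0.05. CNP had intensities of 10589.3 to 32925.0 (median 17904.9) in deprived layers and of 8471.8 to 15678.8 (median 10836.5) in non-deprived layers. Its change was 0.67 ± 0.19 (1.59-fold, adjusted p = 0.19, limma), and the deprived array was higher in 5 of 6 layers. Deprived layers 3, 5 and 6 lay above every non-deprived array, and deprived layers 1, 2 and 4 within the non-deprived range. MOG, a protein of the outermost myelin surface, had 1784.1 to 4756.1 (median 3077.9) in deprived layers and 1105.7 to 2641.7 (median 2175.75) in non-deprived layers. Its change was 0.64 ± 0.27 (adjusted p = 0.36), with 0.41 and 0.50 on its other tested probe sets, and the groups overlapped. The MOG change was 0.40 when deprived layer 2 was left out. That MOG probe set is of a type that can also bind related transcripts. GPM6B, of the proteolipid family and also expressed by neurons and astrocytes, had 22935.0 to 34634.2 in deprived and 12234.2 to 25199.5 in non-deprived layers (0.47 ± 0.16). It was the third membrane gene with an unadjusted p under 0.05, and the deprived array was higher in 5 of 6 layers. CD9, a tetraspanin, had 0.48 ± 0.27, CLDN11, the claudin of myelin's tight junctions, 0.38 ± 0.26, and GJB1, the gap junction protein connexin 32, 0.20 ± 0.21. The proteolipids PLLP and MAL had 0.19 ± 0.24 and 0.09 ± 0.20.

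Neither MBP nor MAG passed, and both changes were below the median of the 29 genes. MBP had 31831.3 to 73296.2 (median 48922.0) in deprived and 30137.9 to 53047.9 (median 48100.1) in non-deprived layers. Its change was 0.08 ± 0.13 (adjusted p = 0.843), with the deprived array higher in 3 of 6 layers, and -0.01 without the deprived layer 3. The other tested MBP probe sets had 0.37 and 0.39, so the size of its change depends on the probe set. MAG had 505.2 to 2148.2 (median 1298.45) in deprived and 535.2 to 1537.5 (median 941.4) in non-deprived layers, a change of 0.25 ± 0.22 (adjusted p = 0.706). The MAG change was 0.09 when non-deprived layer 6 was left out and 0.14 when deprived layer 3 was. MOBP, another protein of compact myelin, was higher in the deprived array of 6 of 6 layers, at 13738.3 to 33121.8 in deprived and 12839.0 to 28622.2 in non-deprived layers (0.37 ± 0.18). It is named after its values were seen, as 1 of 5 genes with that pattern. The other 4 were OLIG2, QKI, EVI2A and LPAR1, and 2.86% of all genes were higher in 6 of 6 layers. The deprived array was higher in at least 5 layers for 14 genes (12.9% of all genes). No gene's groups failed to overlap, where 0.659% of all genes did.

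Regulators of the lineage also had positive changes, 4 of 4 with a median of 0.34. OLIG2, a transcription factor that specifies the lineage, had 761.2 to 1429.8 (median 1040.8) in deprived layers and 433.1 to 1103.9 (median 691.85) in non-deprived layers. Its change was 0.65 ± 0.24 (1.56-fold, adjusted p = 0.315), and non-deprived layer 5 was the only non-deprived array above the lowest deprived one. The other OLIG2 probe set, which lay below the filter, went the opposite way (-0.50 ± 0.17 without the filter, higher in the deprived array of 1 of 6 layers). With the gene's probe sets averaged, the OLIG2 change was 0.07, so the direction for OLIG2 rests on 1 probe set. QKI, an RNA-binding protein that controls the splicing and transport of myelin mRNAs, had 30144.9 to 42000.5 (median 36483.9) in deprived layers and 14693.9 to 30536.3 (median 25502.1) in non-deprived layers. The QKI groups met only at deprived layer 4 (30144.9) and non-deprived layer 6 (30536.3). Its change was 0.71 ± 0.18 (1.64-fold, adjusted p = 0.147). Its other tested probe sets had 0.73, 0.40, 0.36 and 0.07. Leaving out deprived layer 5, 1 of its probe sets passed, and leaving out non-deprived layer 6, 2 passed, when 43 probe sets in all passed. SOX10 and MYRF, the factors that switch on myelin genes, had changes of 0.04 ± 0.23 and 0.03 ± 0.20.

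The secreted proteins and receptors had the highest median change of the roles, 0.62, with 4 of 4 positive and each with an unadjusted p under 0.05. LPAR1 is a receptor for lysophosphatidic acid, the lipid signal that the secreted enzyme autotaxin (ENPP2) makes. LPAR1 had 1259.7 to 2003.1 (median 1430.75) in deprived layers and 528.2 to 1373.4 (median 868.05) in non-deprived layers. Its change was 0.72 ± 0.23 (1.65-fold, adjusted p = 0.229), with 0.37 and 0.80 on its other probe sets, and non-deprived layers 5 and 6 overlapped the deprived range. ENPP2 had 19653.9 to 33492.3 in deprived and 11649.8 to 24335.2 in non-deprived layers (0.41 ± 0.16). TF, the iron carrier transferrin, had 7586.5 to 15657.4 in deprived and 4809.0 to 8556.6 in non-deprived layers (0.57 ± 0.20). Deprived layer 3, the array of highest score, had the lowest deprived TF value. PTGDS makes prostaglandin D and is expressed by meningeal cells as well as by oligodendrocytes. It had 15428.9 to 69145.1 (median 42257.9) in deprived and 14894.6 to 35605.3 (median 23441.0) in non-deprived layers, a change of 0.66 ± 0.30 (adjusted p = 0.396), which was 0.49 to 1.02 without single arrays, highest without deprived layer 2. Its deprived parvocellular arrays were all above its non-deprived arrays, and its deprived magnocellular arrays were below the non-deprived arrays of the same layers.

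Of the enzymes of myelin lipids and acetate, 3 of 3 tested had positive changes (median 0.10). FA2H adds a hydroxyl group to the fatty acids of galactolipids. It had 596.6 to 2203.2 (median 1251.95) in deprived and 614.9 to 1471.4 (median 705.15) in non-deprived layers, a change of 0.59 ± 0.19 (adjusted p = 0.238). The non-deprived range lay within the deprived one, and the deprived array was higher in 4 of 6 layers. UGT8, which makes galactosylceramide, had 0.07 ± 0.18 and GALC, which breaks it down, had 0.10 ± 0.33. The genes of the cytoplasm and other functions had 6 positive and 1 negative change (median 0.26). EVI2A, a gene for a membrane protein that lies within an intron of NF1, had the largest change of the 29 genes. It had 1157.3 to 1941.8 (median 1381.5) in deprived and 417.1 to 1263.8 (median 890.5) in non-deprived layers, and its change was 0.78 ± 0.21 (1.72-fold, adjusted p = 0.164). Non-deprived layers 3 and 5 overlapped the lower deprived values of EVI2A. CA2, a carbonic anhydrase, had 0.40 ± 0.21, GSN, which severs actin filaments, 0.32 ± 0.22, and NDRG1 0.26 ± 0.16. PLEKHB1 had 0.16 ± 0.19 and PADI2, which converts arginine residues of myelin proteins to citrulline, 0.12 ± 0.15.

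SEPTIN4, a filament-forming septin, had the only negative change of the tested genes. It had 4540.5 to 7574.5 (median 5838.3) in deprived and 5017.7 to 10388.1 (median 6907.2) in non-deprived layers, a change of -0.24 ± 0.17 (adjusted p = 0.615). Its other tested probe set had 0.16, so its probe sets disagreed. Of the 11 genes with several tested probe sets, the other 10 had the same sign on each. Of the 48 probe sets, 47 had a positive change. The genes below the filter had changes of 0.29 ± 0.30 (ASPA, which frees acetate from N-acetylaspartate), -0.18 ± 0.62 (BCAS1, of newly myelinating cells) and 0.29 ± 0.32 (TSPAN2, a tetraspanin).

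**Figure D3:**
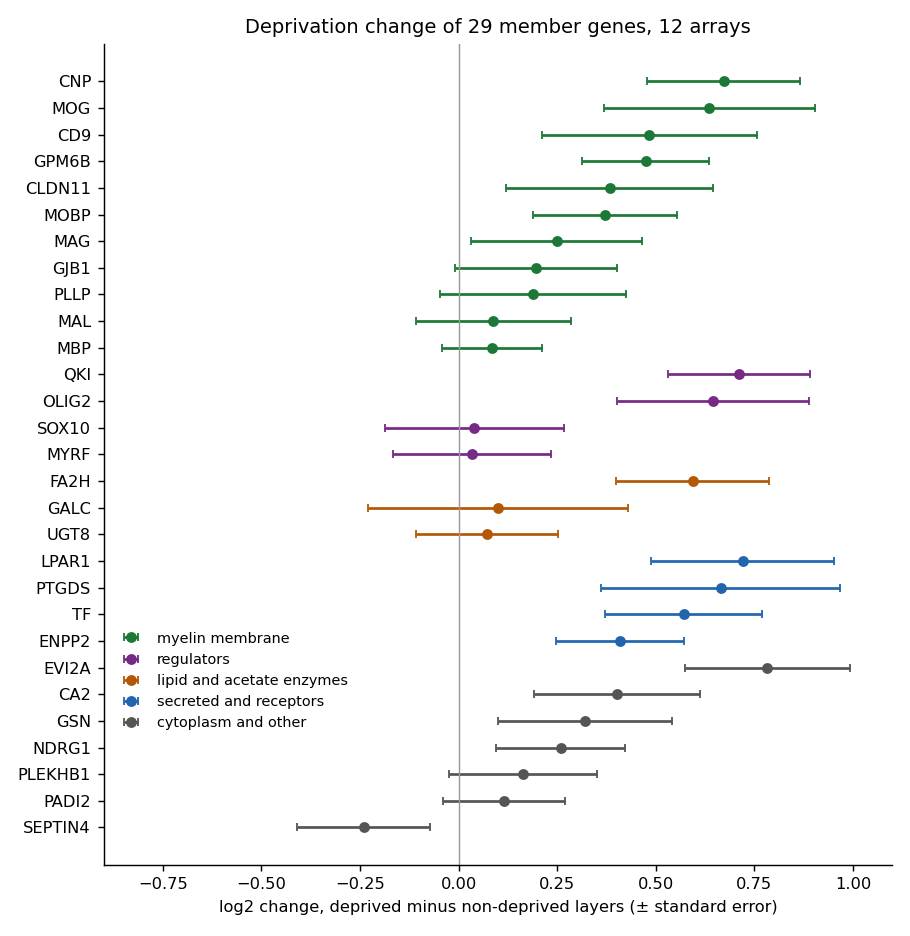
Log2 change, deprived minus non-deprived, with its standard error for the 29 tested genes, grouped by role. Of these, 28 are positive, from SEPTIN4 at -0.24 to EVI2A at 0.78, and 0 pass an adjusted p under 0.05.

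The second comparison set magnocellular against parvocellular layers. Most of these genes were lower in magnocellular layers, and MAG and MBP fell by the test. Of the 29 genes, 2 passed as lower (0.384% of all genes) and 0 as higher (0.357%), and 12 were lower at an unadjusted p under 0.05 (8.94%) and 1 higher (5.72%). The median change was -0.43, against -0.06 over all genes, with 20 negative and 9 positive changes (57.6% of all genes negative). On the probe set that stands for each gene, the 2 genes that passed were also the only ones whose groups did not overlap (0.892% of all genes, lower). Another tested probe set of MOG also had no overlap, at 1368.0 to 1871.3 in magnocellular and 1914.3 to 4376.6 in parvocellular arrays. Its change was -0.62 ± 0.20 (adjusted p = 0.168, limma).

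MAG had 505.2, 537.4, 648.1 and 535.2 in the magnocellular arrays, and 822.9 to 2148.2 (median 1379.45) in the parvocellular arrays. Every magnocellular array lay below every parvocellular one. The means were 556 ± 62.8 (n = 4) and 1385 ± 431 (n = 8), and the change was -1.26 ± 0.23 (0.417-fold, adjusted p = 0.018, limma). The other MAG probe set, which lay below the filter, had -0.09 ± 0.50 without the filter, and its groups overlapped. The MAG call thus rests on 1 probe set. MBP had 31831.3 and 34780.2 in the deprived and 30137.9 and 38302.8 in the non-deprived magnocellular arrays, and 45937.9 to 73296.2 (median 51238.5) in the parvocellular arrays. The means were 33763 ± 3583 (n = 4) and 52944 ± 8595 (n = 8), again without overlap. Its change was -0.64 ± 0.13 (0.641-fold, adjusted p = 0.0334), and its other tested probe sets had -0.62 (adjusted p = 0.195) and -0.74 (adjusted p = 0.115).

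The ACTB 3'/5' ratio moved with this comparison, as given above. With log2 of that ratio in the fit, 0 genes passed, the median of the 29 genes was -0.01 (14 positive, 15 negative), and 4 probe sets of all tested passed. MAG then had -1.14 ± 0.40 (adjusted p = 0.976) and MBP -0.36 ± 0.21 (adjusted p = 1). In that fit 23 of the 29 genes had a negative coefficient per doubling of the ratio (median -0.22, 0 passed). Cell class and this ratio went together over the 12 arrays, and their parts in the result cannot be told apart. Both calls were also lost when either magnocellular deprived array (layers 1 and 2) or non-deprived layer 2 was left out. The MBP call alone was lost when non-deprived layer 1, 3 or 5 or deprived layer 6 was left out. Over the alternatives the adjusted p ranged from 0.00305 to 0.976 for MAG and from 0.022 to 1 for MBP.

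**Figure D4:**
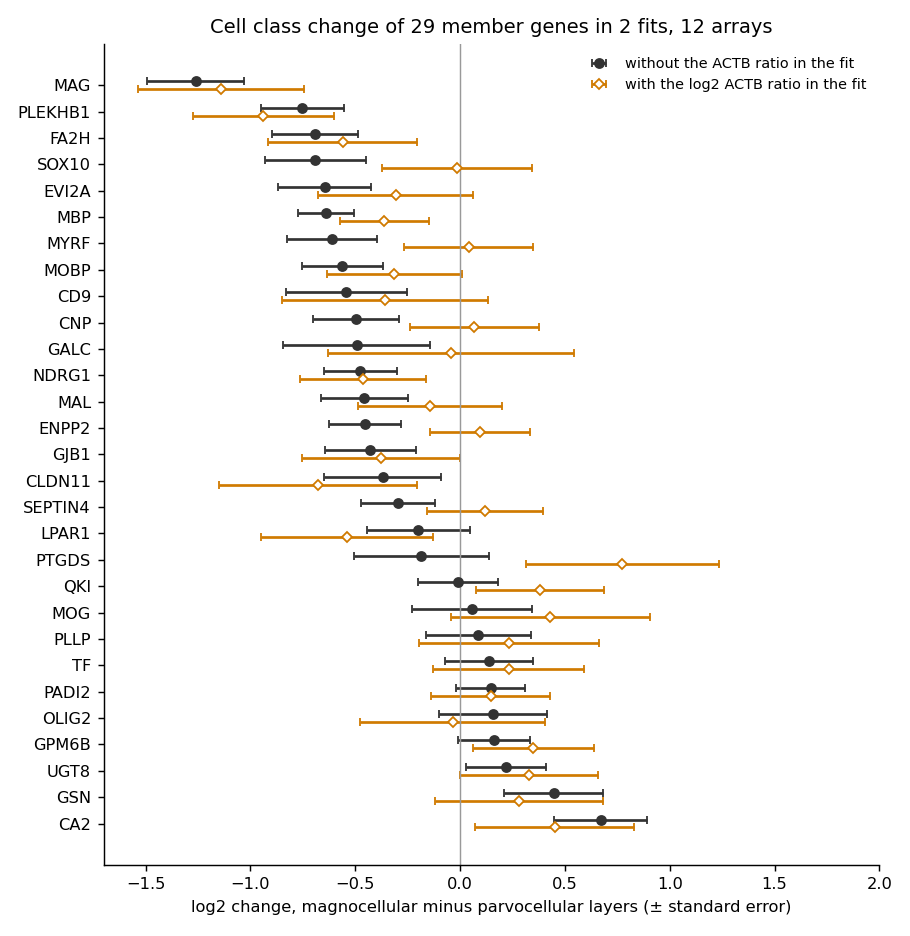
Log2 change, magnocellular minus parvocellular, with its standard error for the 29 tested genes, ordered by size, in the fit without (filled) and with (open) the log2 ACTB 3'/5' ratio. MAG (-1.26) and MBP (-0.64) pass without the ratio, 0 genes pass with it, and the median moves to -0.01 with the ratio, against -0.43 without it.

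Other members did not pass, and the median change was negative in each of the 5 roles. In the myelin membrane 8 of 11 changes were negative (median -0.46), among them CNP with -0.50 ± 0.21 (adjusted p = 0.286), which had 0.07 with the ACTB ratio. CNP had 10589.3, 14586.1, 11331.6 and 9558.3 in magnocellular and 8471.8 to 32925.0 in parvocellular arrays, which overlapped. Among regulators 3 of 4 changes were negative (median -0.31), those of SOX10, MYRF and QKI. SOX10 had 1693.8 to 2657.2 in magnocellular and 2417.6 to 5831.1 in parvocellular arrays, with a change of -0.69 ± 0.24 (adjusted p = 0.21). MYRF had 1010.3 to 1845.6 in magnocellular and 1767.9 to 3297.3 in parvocellular arrays, with a change of -0.61 ± 0.21 (adjusted p = 0.21), 0.04 with the ACTB ratio and -0.38 when deprived layer 2 was left out. The groups of each factor overlapped at 1 or more arrays.

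PLEKHB1, a pleckstrin-homology protein, had 724.9 to 1414.0 in magnocellular and 1399.9 to 2074.5 in parvocellular arrays, a change of -0.75 ± 0.20 (adjusted p = 0.104). The 2 ranges touched only at the deprived layer 2 and the non-deprived layer 3. FA2H had 596.6 to 1042.6 in magnocellular and 614.9 to 2203.2 in parvocellular arrays (-0.69 ± 0.21, adjusted p = 0.143), and EVI2A had -0.65 ± 0.22 (adjusted p = 0.206), or -0.43 when non-deprived layer 1 was left out. CA2, the carbonic anhydrase of the oligodendrocyte cytoplasm, had the opposite sign. It had 4518.2, 3190.7, 3874.4 and 2892.9 in magnocellular and 1040.7 to 3508.0 (median 2372.55) in parvocellular arrays, a change of 0.67 ± 0.22 (adjusted p = 0.188). Its 1 low value was on the non-deprived layer 3. Of the 11 genes with several tested probe sets, 8 had the same sign on each in this comparison, and MOG had 0.06 on 1 probe set and -0.62 and -0.03 on the others. The regulators OLIG2 and QKI had 0.16 ± 0.26 and -0.01 ± 0.19. The remaining membrane genes had -0.56 ± 0.19 (MOBP), -0.54 ± 0.29 (CD9), -0.46 ± 0.21 (MAL), -0.43 ± 0.22 (GJB1), -0.37 ± 0.28 (CLDN11), 0.09 ± 0.25 (PLLP) and 0.16 ± 0.17 (GPM6B). The secreted proteins and receptors had 3 of 4 negative changes (median -0.19), ENPP2 with -0.46 ± 0.17 and TF, the positive one, with 0.14 ± 0.21. Of the lipid enzymes 2 of 3 were negative (median -0.49), and of the genes of the cytoplasm 4 of 7 (median -0.30).

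**Figure D5:**
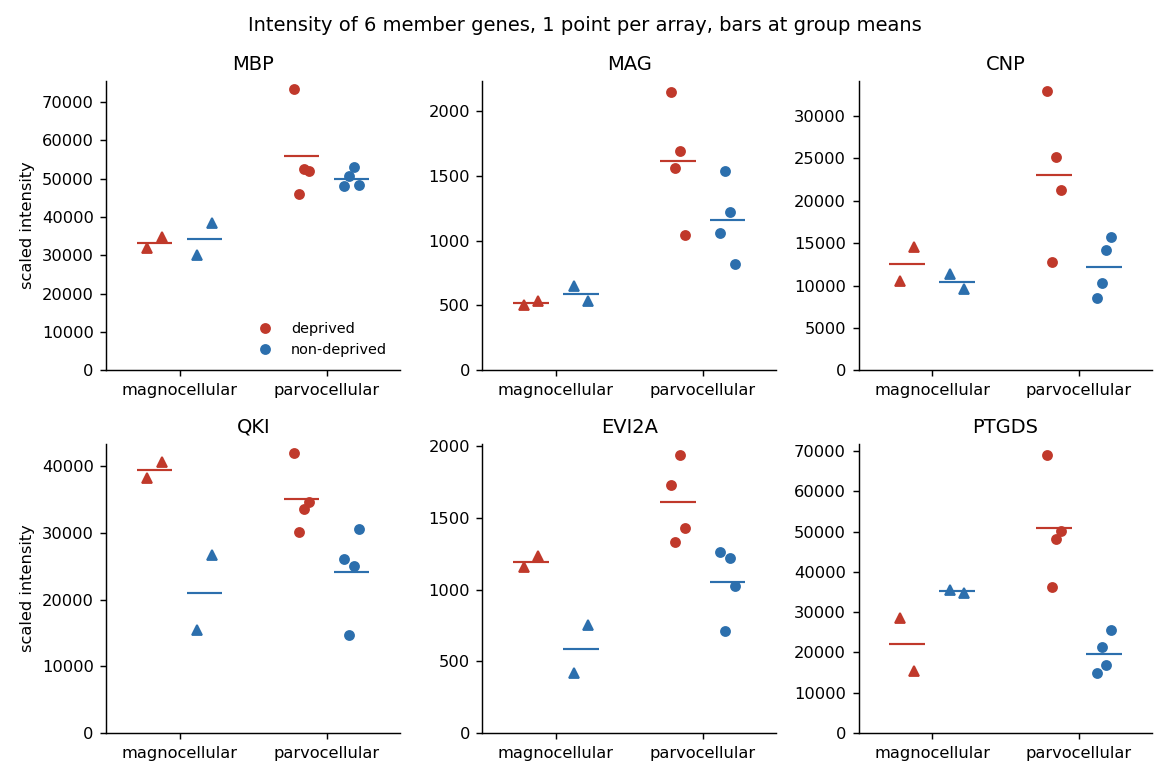
Scaled intensity (linear axis from 0) of MBP, MAG, CNP, QKI, EVI2A and PTGDS on each of the 12 arrays, 1 point per array by cell class and deprivation, with lines at the means of the groups shown. MAG lies at 505.2 to 648.1 in the 4 magnocellular arrays and at 822.9 to 2148.2 in the 8 parvocellular arrays, and QKI at 30144.9 to 42000.5 in deprived and 14693.9 to 30536.3 in non-deprived layers.

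Hemispheres were compared because each layer's deprived and non-deprived arrays came from opposite hemispheres. Only over the layers together did each hemisphere hold both kinds of array. Of the 29 genes, 0 passed (0.124% of all genes), 6 were higher ipsilaterally at an unadjusted p under 0.05 (12.9% of all genes) and 1 lower (6.82%). The median change, ipsilateral minus contralateral, was 0.10, and 19 of 29 were positive (57.8% of all genes). Membrane genes had 9 of 11 positive changes (median 0.32), among them CLDN11 (0.64 ± 0.26), MAL (0.61 ± 0.20), PLLP (0.57 ± 0.24) and CNP (0.46 ± 0.19), and FA2H had 0.68 ± 0.19. SEPTIN4 had -0.36 ± 0.17. The sign of the median over the 32 genes followed the scaling of all genes. As deposited it was 0.10, against 0.13 over all genes, and after median centring it was -0.21, against -0.18. The 32 genes stood at -0.03 relative to all genes, a gap that median centring cannot change. With quantile normalization the median of the 32 genes was 0.11, against 0.01 over all genes. Without the non-deprived layer 6, 3 member probe sets passed (of FA2H, GALC and MOBP), when 851 probe sets of all tested passed. This count is over all tested probe sets of a gene. For MOBP the main fit gave 0.11 ± 0.18 on the probe set that stands for it and 0.67 ± 0.25 on its other.

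Whether the deprivation change differed between cell classes was tested with an interaction term. Of the 29 genes, 0 passed and 0 of all probe sets did (0%), while at an unadjusted p under 0.05 PTGDS, MAL and MYRF were lower (6.47% of all genes) and LPAR1 higher (2.64%). PTGDS had 28546.3 and 15428.9 in deprived against 35605.3 and 34712.7 in non-deprived magnocellular layers. In parvocellular layers 3 to 6 it had 69145.1, 36268.1, 48247.8 and 50201.0 in deprived against 14894.6, 21303.6, 16800.5 and 25578.3 in non-deprived arrays. The deprived array was lower in both magnocellular layers and higher in 4 of 4 parvocellular layers. The interaction was -2.11 ± 0.39 (adjusted p = 0.259, limma), with -1.41 and -1.45 on the other probe sets. In parvocellular layers alone, PTGDS had a change of 1.37 and passed (adjusted p = 0.0119, limma), and no other member probe set did. How many of all probe sets passed in that fit is not given here. The range over the alternatives stands at the end. Without the deprived layer 1, 3 PTGDS probe sets passed the interaction, when 208 of all probe sets did. That fit holds a single deprived magnocellular array, which is assumed to vary like the other groups. All PTGDS probe sets are of a type that can bind related transcripts. In the group means the ACTB ratio moved the opposite way to PTGDS. It was 50.5 ± 17.4 in deprived and 42.3 ± 17.6 in non-deprived magnocellular arrays. In parvocellular arrays it was 21.9 ± 3.57 in deprived and 29.4 ± 11.4 in non-deprived arrays. By layer, the ratio and PTGDS moved the same way in layer 1 (ratio 38.2 deprived, 54.7 non-deprived) and layer 3 (20.3, 17.0). What part the ratio had in the interaction was not tested.

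MAL, a proteolipid of compact myelin, had an interaction of -1.10 ± 0.32 (adjusted p = 0.408) and MYRF of -0.98 ± 0.36 (adjusted p = 0.463). MYRF had 1164.5 and 1010.3 in deprived against 1845.6 and 1509.3 in non-deprived magnocellular layers. In parvocellular layers 3 to 6 it had 3297.3, 1767.9, 2604.5 and 1939.8 in deprived against 1878.9, 1817.5, 1771.0 and 1786.0 in non-deprived arrays. For LPAR1 the deprived arrays had 1509.0 and 2003.1 against 528.2 and 822.3 in non-deprived magnocellular layers, gaps wider in log2 than in any parvocellular layer (interaction 1.02 ± 0.43). Over the 32 genes, the median difference of means between deprived and non-deprived arrays was 0.45 in parvocellular layers (30 positive) and 0.21 in magnocellular layers (20 positive). It was 0.47 in ipsilateral layers (29 positive) and 0.13 in contralateral layers (23 positive), where the deprived and non-deprived arrays are of different layers. These medians were not tested against each other. In the additive fit with log2 of the ACTB ratio, the change per doubling was -1.12 ± 0.43 for PTGDS and -0.76 ± 0.29 for MYRF. It was -0.37 ± 0.32 for MAL and 0.40 ± 0.38 for LPAR1, and none passed.

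Genes of related functions were taken from lists. Cholesterol is the main lipid that limits myelin growth, and of 22 listed genes of its synthesis 17 were measured and 16 tested. None passed for deprivation, 13 changes were positive and 3 negative, the median was 0.41 and 7 were higher at an unadjusted p under 0.05. Over all genes 53.1% were positive, 6.09% were higher at that p and the median was 0.02. MSMO1, a sterol demethylation enzyme, had 6611 ± 1193 in deprived and 4194 ± 681 in non-deprived layers (0.65 ± 0.16, adjusted p = 0.137, n = 6 each). FDPS, which makes farnesyl diphosphate, had 0.74 ± 0.21 (adjusted p = 0.19). This list's median for cell class was -0.18, with 0 passing, and TM7SF2 had -0.65 ± 0.22 and FDPS -0.54 ± 0.23. Of the sphingolipid and fatty acid genes, 12 of 15 measured were tested, with 0 passing, 10 positive and a median of 0.18 for deprivation. SCD, a fatty acid desaturase, had 0.60 ± 0.17, and ELOVL5, an elongase, had 0.74 ± 0.25. For cell class FASN, fatty acid synthase, had -0.74 ± 0.24 and KDSR -0.35 ± 0.17, and 0 passed.

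Genes of oligodendrocyte precursors, the dividing cells from which oligodendrocytes form, were also listed. Of 13, 7 were measured and 5 tested, with 0 passing. All 5 tested changes were positive (53.1% over all genes), with a median of 0.42 (0.02 over all genes). CSPG4 and GPR17, below the filter, had negative changes, so 5 of the 7 measured were positive and 2 negative (median 0.40). VCAN, versican, had 0.54 ± 0.20 and PTPRZ1, a receptor phosphatase, had 0.53 ± 0.21. Both are also expressed by other cells of the brain. Genes of the node of Ranvier and of contacts between axon and glia did not lean to 1 side (13 tested, 6 positive, median -0.06, 0 passing). CNTN1, an axonal contactin, had 1.05 ± 0.34 and JAM3 had 0.42 ± 0.15 for deprivation. For cell class, CNTNAP2 had 0.54 ± 0.18 and SPTBN4 -0.96 ± 0.38, and 0 passed.

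Values of markers of other cell types stand beside these changes, and their part in them was not tested. Neuron markers had 14 negative and 2 positive changes of 16 tested (median -0.23, 0 passing), with NEFM, a neurofilament subunit, at -0.53 ± 0.11 (adjusted p = 0.101) and NEFH at -0.35 ± 0.10. Their summed intensity was 536350 to 668549 in deprived and 628460 to 785677 in non-deprived arrays. The summed intensity of the oligodendrocyte and myelin genes was 238091 to 392697 in deprived and 196206 to 241264 in non-deprived arrays. Astrocyte markers had 11 of 14 positive changes (median 0.13, 0 passing; GFAP 0.62 ± 0.19 and AGT 0.49 ± 0.17) and sums of 191757 to 266290 in deprived and 172560 to 238316 in non-deprived arrays. Microglia markers had 6 of 7 positive changes (median 0.20, 0 passing) and sums of 10761.7 to 21699.8 in deprived and 11026.4 to 14286.4 in non-deprived arrays. Endothelial and mural markers had 8 of 10 (median 0.28, 0 passing), with sums of 14525.5 to 21450.3 in deprived and 12238 to 15896.7 in non-deprived arrays. Markers of Schwann cells, meninges and choroid plexus had 2 of 4 (median 0.01, 0 passing), with sums of 4534.5 to 9605.8 in deprived and 4106.7 to 6742.5 in non-deprived arrays, highest on the deprived layer 3.

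Between cell classes, AGT, the angiotensinogen of astrocytes, fell in magnocellular layers (-1.07 ± 0.18, adjusted p = 0.0089, limma). The call was lost when deprived layer 1 (adjusted p = 0.0693) or non-deprived layer 2 (adjusted p = 0.0526) was left out, and with the ACTB ratio in the fit (-1.21 ± 0.30, adjusted p = 0.521). SLC1A3, a glutamate transporter of astrocytes, had 0.97 ± 0.26 (adjusted p = 0.118). NEFM rose in magnocellular layers, with 88360 ± 19124 (n = 4) against 50021 ± 11714 in parvocellular layers (n = 8; 0.83 ± 0.12, adjusted p = 0.0029, limma). With the ACTB ratio this call was lost too (0.64 ± 0.20, adjusted p = 0.856), and it held without each single array (adjusted p of 0.0039 to 0.04). The summed intensity of neuron markers was 610532 to 785677 in magnocellular and 536350 to 690926 in parvocellular arrays. Such sums weigh bright probe sets such as NEFM most. The median cell class change of the 16 neuron markers was 0.10, with 11 positive and 5 negative. That of the oligodendrocyte and myelin genes was 196206 to 250409 in magnocellular and 201529 to 392697 in parvocellular arrays.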

How the data were processed

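The deposited values were 1 intensity per probe set and array on a linear scale, from total RNA of 12 macaque geniculate layers on a human expression array. The software behind them is not given in the sources used here. On the 12 arrays, 2%-trimmed means of the deposited intensities lay between 1500.45 and 1500.6, so the authors' table was already scaled and was used as deposited. Probe sets were named from the platform annotation: 19065 had 1 gene, 1043 several and 2107 none, besides 68 controls, and none was named from several.

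Values below the 20th percentile (110.8) were raised to it (0.0683% of tested values) and log2 was taken. The 11105 probe sets at or above the median mean were tested with limma 3.58.1 (lmFit, eBayes with trend, two-sided, Benjamini-Hochberg) in R 4.3.3, in an additive fit of deprivation, cell class and hemisphere with 8 residual degrees of freedom (7 with the interaction). Changes are log2 differences ± standard error. Shares over all genes use 1 probe set per gene, of highest mean (7285 genes). As a check of the code, the fit was run on simulated data with independent noise and planted changes larger than any member's deprivation change. That check does not bear on changes of the members' size or on arrays that share an animal.

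The members and the lists were chosen with earlier results of these data known. Values per array are given for MBP, MAG and CNP, genes past the threshold, the 8 largest changes by deprivation and by cell class, and up to 3 genes whose probe sets differ in sign, and of other lists the genes past the threshold and the 2 of smallest p. The alternatives were normalization, filter, floor, trend, covariates, blocks, subsets of layers and leaving out single arrays.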

Additional observations from a re-analysis of the deposited data

Results flagged for a closer look

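Over 64 groups of 4 to 8 arrays, of the named genes and the score, 2 held an array far from the others relative to the group's range. Chance alone gives about 1 in 20 such groups. In the parvocellular arrays, MBP was 73296.2 on the deprived layer 3, with a gap of 0.692 of the range to the next array. In the non-deprived arrays, MYRF, the transcription factor of myelin genes, was 1509.3 on layer 2, below the others by 0.73 of the range.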

How the results depend on the processing

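No member passed for deprivation as deposited or in 14 of 15 other settings. The exception was parvocellular layers alone (1 probe set, of PTGDS), and without single arrays 0 to 2 member probe sets passed. The median deprivation change of the 32 genes was 0.307, 0.171 to 0.452 under other settings and 0.255 to 0.364 without single arrays. MBP had a deprivation change of 0.08, and of -0.05 both after median centring and without the deprived layers 3 and 5. Under other settings the MBP change was up to 0.23, and without single arrays -0.01 (deprived layer 3) to 0.16. For cell class the 2 calls became 1 after median centring, without a trend, with the GAPDH ratio or in contralateral layers alone. They became 0 without the filter, with the ACTB ratio, without the 2 arrays of highest GAPDH ratio, with a gene's probe sets averaged, or in non-deprived or ipsilateral layers alone. They were 0 to 3 member probe sets without single arrays. The median cell class change (-0.399) was 0.0409 with the ACTB ratio, -0.189 in non-deprived layers, -0.199 in ipsilateral layers and -0.438 to -0.276 without single arrays. With the ACTB ratio CNP had 0.07 and MYRF 0.04. For hemisphere 0 to 3 member probe sets passed without single arrays. For the interaction 0 passed when single parvocellular arrays were left out. Leaving out a magnocellular array leaves 1 array in a group of the interaction, as given above for PTGDS. The hemisphere median (0.103) was -0.214 after median centring and 0.0418 to 0.186 without single arrays, and the ipsilateral minus contralateral score (0.135) was -0.182 after median centring. That scaling moved the median of all genes alike, to -0.18 against 0.13, and with quantile normalization the hemisphere median was 0.108. The interaction median (-0.168) was 0.0179 with the ACTB ratio and -0.293 to -0.076 without single arrays. The cause of the other shifts was not tested. The settings of ipsilateral and contralateral layers alone and without the deprived layers 3 and 5 were chosen after seeing the data.

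Over all probe sets, 7 passed for deprivation and 80 for cell class, and 0 to 43 and 0 to 188 under the alternatives. With the layer number as a replicate block 0 members and 3 probe sets in all passed for deprivation, and the member median stayed 0.307. The number marks the same anatomical layer of opposite hemispheres. Arrays of the same layer did not deviate together from their deprivation group means (correlations -0.25 to -0.0016, none highest with its own layer). Such arrays come from opposite hemispheres, so hemisphere differences enter these correlations, and the correlations cannot show that layers are unpaired. Layers were not taken as pairs in the main fit.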
